A study of Sthenoteuthis oualaniensis with 24 samples.

Results

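In the medium form (MF) of the purpleback flying squid *Sthenoteuthis oualaniensis* (SA), 75 unigenes differed between the stomach libraries of mature and immature SA. In the intestine libraries they were at similar levels. Of these, 61 rose and 14 fell in the stomach of mature SA. They were drawn from the 66837 unigenes of the MF, out of 135464 unigenes of both forms. The expression values themselves chose them. A member had a mean of at least 20 FPKM in 1 of the stomach groups, a stomach ratio of mature to immature SA of at least 4 or at most 0.25, at least 5 FPKM in both intestine groups, and an intestine ratio from 0.67 to 1.5. Ratios were taken after adding 0.5 FPKM to each group mean. FPKM is the number of fragments per kilobase of transcript, scaled to the mapped reads of the library, and a unigene is a transcript put together from the reads without a genome.

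RNA-Seq of SA caught in the South China Sea covered 8 groups of 3 libraries, of which the 4 groups of the MF are used here. These are the stomach of mature SA (MDS), the stomach of immature SA (MUS), the intestine of mature SA (MDI) and the intestine of immature SA (MUI). According to the methods of the study, mature SA were at maturity stages III–V and immature SA at stages I and II, with 3 mature and 3 immature SAs of the MF sampled. The labels give no sex, age or treatment. Mature and immature SA were different animals, so the comparison is between animals and not a series over time.

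In squids, food is broken down in a muscular stomach and a caecum with enzymes that come largely from the digestive gland, while the intestine leads from there to the anus and takes part in absorption. Sexual maturation draws nutrients towards the gonads, and the study asked how gastrointestinal function differs between mature and immature SA. Sampling both tissues allows changes of the stomach to be set beside those of the intestine. The files pair no unigene ID with a gene name or a sequence, so no function is given to any member, the tissue labels could not be checked against markers, and at most 2 IDs are printed per direction.

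The summed FPKM of a library was 623381 to 624129 in MDS, 612873 to 615241 in MUS, 723734 to 727591 in MDI and 715241 to 718169 in MUI. These files hold FPKM and no counts, so depth was estimated. Ratios of low values between libraries put the library numbered 1 of each MF group at 0.85 to 0.87 times the depth of the library numbered 2, and the library numbered 3 at 1.00 to 1.01 times. Where it could be read, the value of 1 read had a median of 0.29 to 0.32 FPKM per group, over mostly scarce unigenes. The variance between libraries of a group was 1.14 to 1.62 times that of counting reads, as far as these approximate depths allow. In simulated libraries with counting noise only, the same estimate gave 0.83 to 0.98 times, so it ran low there. The sources do not say whether a library number marks an animal, so all tests measure only the spread between these libraries, which may be technical.

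The 61 members that rose had mean levels of 20.2 to 906 FPKM in MDS, with a median of 43.7 FPKM, against a median of 5.52 FPKM and a highest level of 127 FPKM in MUS. Their intestine levels had a median of 26.1 FPKM in MDI and 21.6 FPKM in MUI. The median log2 ratio of MDS to MUS was 2.73. The ratio was 4-fold to below 8-fold for 33 members, at least 8-fold for 28 and at least 32-fold for 7. For each of the 61 members, the 3 libraries of MDS lay above the 3 libraries of MUS, which held for 34.5% of the 44581 unigenes tested in the stomach (64.4% did not overlap in either direction). Because the rule chose members by this same difference, nothing is read from that count. In bulk tissue, fewer cells of a type and less RNA per cell cannot be told apart.

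Most members that rose were moderately abundant. In MDS, 39 of them had between 20 and 50 FPKM, 9 had between 50 and 100 FPKM and 13 had at least 100 FPKM. Those 13 had means of 0.81 to 127 FPKM in MUS, with a median of 19.0 FPKM. Together the 61 members took 1.04% to 1.07% of the summed FPKM in the libraries of MDS, against 0.11% to 0.12% in those of MUS. Their share was 0.74% to 0.75% in MDI and 0.64% to 0.66% in MUI. The order of these shares within the stomach follows from the selection. A single member, singled out after its values were seen, held 39.2% to 39.4% of the summed FPKM of the 61 in MDI and 36.6% to 37.6% in MUI. Without it, the share of the other 60 was 0.95% to 0.99% in MDS and 0.094% to 0.10% in MUS, and it was 0.45% in MDI and 0.40% to 0.42% in MUI.

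The most abundant member of MDS was comp31733_c0_seq1_1. It had 919, 901 and 897 FPKM in MDS, against 41.3, 43.2 and 43.4 FPKM in MUS. In the intestine it had 165, 160 and 163 FPKM in MDI, against 129, 128 and 125 FPKM in MUI. The stomach groups were far apart, with a log2 ratio of 4.39 and a ratio of means of 21.2, while the intestine groups were close but did not overlap. By mean FPKM it was number 78 of all MF unigenes in MDS and number 1570 in MUS. The mature stomach exceeded both intestine groups, and the immature stomach was below both of them.

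The largest ratio was that of comp60645_c3_seq1_1. It had 202, 186 and 211 FPKM in MDS, against 0.548, 0.934 and 0.943 FPKM in MUS. In the intestine it had 166, 169 and 152 FPKM in MDI, and 142, 166 and 167 FPKM in MUI. The level in MUS was thus by far the lowest while the other 3 groups were alike, and the ranges of the intestine groups overlapped. The log2 ratio was 7.26 and moved between 6.79 and 7.78 with pseudocounts of 1 and 0.1 FPKM, since MUS was close to 0.

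**Figure D1:**
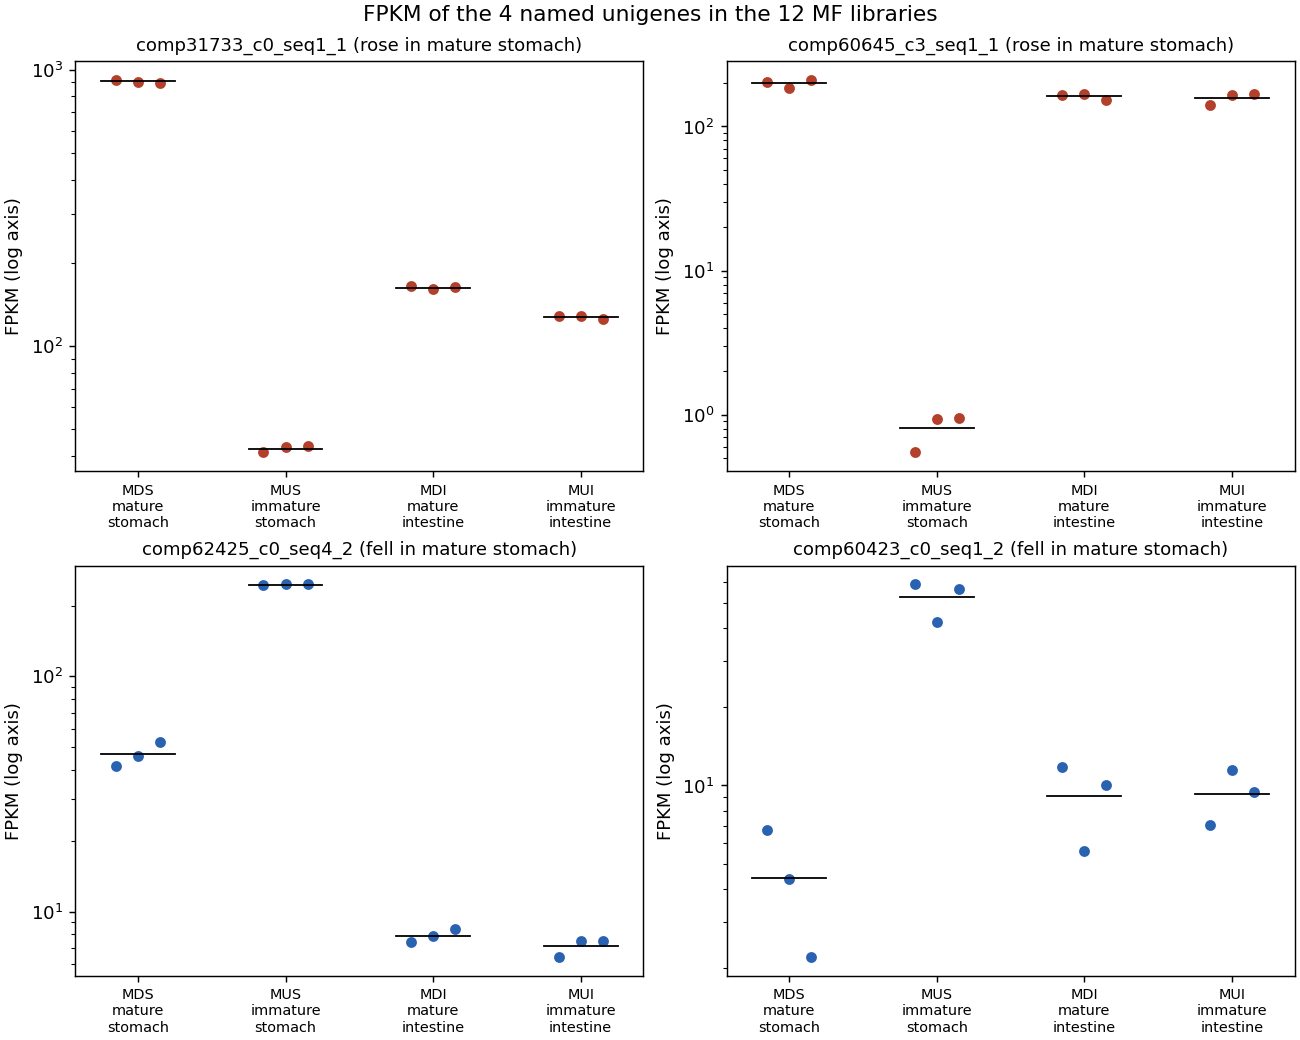
FPKM (log axis) of the 4 unigenes named here in the 12 MF libraries, with the stomach groups MDS and MUS to the left of the intestine groups MDI and MUI. Points are libraries and bars are group means. In each panel MDS and MUS stand apart while MDI and MUI are near each other, as for comp31733_c0_seq1_1 with means of 906 FPKM in MDS and 42.6 FPKM in MUS.

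Several members that rose had very low FPKM in the immature stomach. In MUS, 7 members had means below 1 FPKM, although they had 20.5 to 200 FPKM in MDS, 13.6 to 163 FPKM in MDI and 10.7 to 158 FPKM in MUI. A further 19 had between 1 and 5 FPKM in MUS, 20 had between 5 and 10 FPKM, 9 had between 10 and 20 FPKM and 6 had more. Of the 7 members, 2 were at practically 0 FPKM in each library of MUS, with MDS means of 35.5 and 47.2 FPKM. Their log2 ratios of 6.17 and 6.58 are set by the pseudocount. Values so far below that of 1 read come from the sharing out of fragments between unigenes. They need not mean that the transcript was absent.

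In 2 members that rose, 1 library of MUS stood apart from the other two. The first had 712, 619 and 685 FPKM in MDS, against 0.106, 15.2 and 0.000222 FPKM in MUS. The second had 22.3, 38.4 and 27.6 FPKM in MDS, against 0.259, 17.7 and 0.221 FPKM in MUS. In both, the library numbered 2 held nearly all of the MUS signal. Its lowest MDS library was 40.6 times its highest MUS library in the first member, but only 1.26 times in the second. The second was the single member of the 61 whose closest libraries of MDS and MUS were less than 2-fold apart. Without that library the rule gave 62 members that rose, 59 of them shared with the 61. In no other group did a member have 1 library of at least 5 FPKM at 4 or more times the other two.

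**Figure D2:**
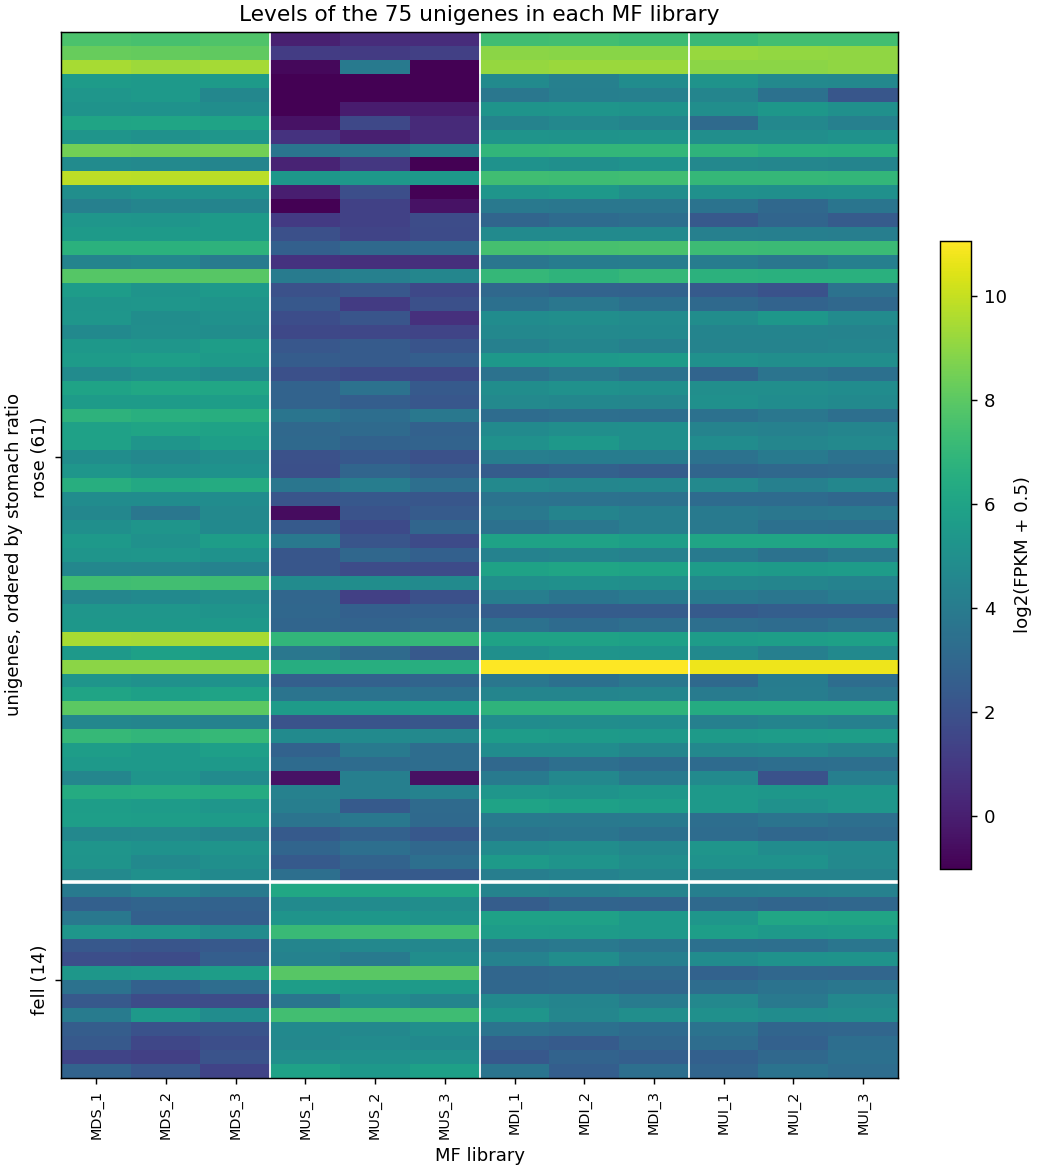
log2(FPKM + 0.5) of the 75 unigenes (lines of the map, the 61 that rose above the 14 that fell, each ordered by stomach ratio) in the 12 MF libraries (columns). The 3 libraries of a group look alike for most unigenes, and MUS has the lowest mean (darkest) for 55 of those that rose and the highest mean (brightest) for 12 of those that fell.

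Under the limits of the rule, the 14 members that fell were fewer and changed less. Their mean levels in MDS were 2.65 to 46.6 FPKM, with a median of 5.41 FPKM, against 21.0 to 246 FPKM in MUS, with a median of 35.0 FPKM. In the intestine the medians were 11.7 FPKM in MDI and 11.2 FPKM in MUI. The median log2 ratio of MDS to MUS was -2.39 and the lowest -3.43, and only 2 of the 14 fell by at least 8-fold. For all 14, the 3 libraries of MDS lay below the 3 libraries of MUS, as for 29.8% of all unigenes tested. In MDS, 7 of them had between 1 and 5 FPKM and 3 had at least 20 FPKM, so that none was as scarce in MDS as some members that rose were in MUS. They took 0.028% to 0.031% of the summed FPKM in MDS libraries, against 0.15% to 0.16% in MUS libraries.

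Among those that fell, comp62425_c0_seq4_2 was the most abundant in MUS. It had 41.7, 45.8 and 52.4 FPKM in MDS, against 244, 246 and 246 FPKM in MUS. In the intestine it had 7.39, 7.89 and 8.40 FPKM in MDI, and 6.41, 7.51 and 7.49 FPKM in MUI. Its log2 ratio in the stomach was -2.39, and MUS was 5.27 times MDS. At both stages the FPKM of this unigene was higher in the stomach than in the intestine, and in the stomach it was lower in mature SA.

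The next in abundance, chosen after its values were seen, had 15.5, 45.0 and 28.9 FPKM in MDS, against 170, 158 and 160 FPKM in MUS, and averaged 30.7 FPKM in MDI and 30.2 FPKM in MUI. Its MDS libraries were widely spread, but the highest of them was far below MUS.

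The largest fall was that of comp60423_c0_seq1_2. It had 6.73, 4.38 and 2.20 FPKM in MDS, against 59.0, 42.3 and 56.6 FPKM in MUS. In the intestine it had 11.8, 5.59 and 10.1 FPKM in MDI, and 7.04, 11.5 and 9.40 FPKM in MUI. Its log2 ratio was -3.43, a level 11.9 times as high in MUS as in MDS. The libraries were scattered at these low levels, with a coefficient of variation of 51.0% in MDS and 17.2% in MUS, yet the stomach groups did not overlap. The intestine groups overlapped.

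The members differed in where the stomach stood relative to the intestine of the same stage. The rule fixed the shift between stages, since a 4-fold change in the stomach with a level intestine must move the stomach up against the intestine in mature SA for every member that rose, and down for every member that fell. The level about which the shift took place was not set, but the rule touched it too. It asked for at least 20 FPKM in the higher stomach group and only 5 FPKM in the intestine groups. That can favour members whose higher stomach group stands above the intestine. For the members that rose, the median log2 ratio of stomach to intestine was 0.93 in mature SA and -1.76 in immature SA. In mature SA, 28 of the 61 were more than 2-fold above the intestine, 31 were within 2-fold and 2 were more than 2-fold below. In immature SA, 1 of the 61 was more than 2-fold above, 15 were within 2-fold and 45 were more than 2-fold below. These classes depend on the scaling between tissues. Scaling by median of ratios put 35 of 56 rises more than 2-fold above the mature intestine, and quantile normalization 33 of 58. MDS was the highest of the 4 groups for 50 members, and MUS was the lowest for 55 members.

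At the FPKM values as deposited, the members that rose fell into 3 main patterns. The first held 30 members, whose stomach was within 2-fold of the intestine in mature SA and more than 2-fold below it in immature SA. In these, MDS had a median of 37.2 FPKM, MUS 4.09 FPKM, MDI 31.3 FPKM and MUI 26.7 FPKM, so that the low group was the immature stomach. The second held 14 members within 2-fold of the intestine in immature SA and more than 2-fold above it in mature SA, with medians of 47.7 FPKM in MDS, 10.2 FPKM in MUS, 11.7 FPKM in MDI and 10.9 FPKM in MUI. Here the high group was the mature stomach. The third held 13 members that were more than 2-fold above the intestine in mature SA and more than 2-fold below it in immature SA, with medians of 49.8 FPKM in MDS, 4.94 FPKM in MUS, 21.9 FPKM in MDI and 20.5 FPKM in MUI. The most abundant member, comp31733_c0_seq1_1, belonged to the third pattern, and comp60645_c3_seq1_1 to the first.

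The extremes of this comparison were 2 other members, chosen after their values were seen. The member furthest below the intestine in immature SA had 304, 297 and 279 FPKM in MDS, against 1.70, 1.61 and 1.96 FPKM in MUS. In the intestine it had 498, 475 and 476 FPKM in MDI, and 584, 546 and 531 FPKM in MUI. It was thus abundant in all groups but the immature stomach, where it was at a log2 ratio of -7.94 to the intestine. The member furthest above the intestine in mature SA had 703, 697 and 702 FPKM in MDS, against 123, 126 and 132 FPKM in MUS. Its intestine levels were 60.9, 61.7 and 56.9 FPKM in MDI, and 51.0, 54.2 and 56.3 FPKM in MUI. Here the stomach was the richer tissue at both stages, and the log2 ratio of stomach to intestine was 3.54 in mature SA and 1.23 in immature SA.

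Another 4 members that rose had other positions. In 2 of them the stomach stayed more than 2-fold below the intestine at both stages, and 1 of these was the most abundant member of the intestine, with 498 FPKM in MDS, 91.7 FPKM in MUS, 2110 FPKM in MDI and 1732 FPKM in MUI. Of the remaining pair, 1 was within 2-fold of the intestine at both stages, with 23.5 FPKM in MDS, 5.17 FPKM in MUS, 11.5 FPKM in MDI and 8.38 FPKM in MUI. The other was the member described above with the stomach more than 2-fold above the intestine at both stages.

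For the members that fell, the opposite shift was likewise set by the rule. The median log2 ratio of stomach to intestine was -0.84 in mature SA and 1.72 in immature SA. In 8 of the 14, the stomach was within 2-fold of the intestine in mature SA and more than 2-fold above it in immature SA, with medians of 7.65 FPKM in MDS, 50.7 FPKM in MUS, 8.46 FPKM in MDI and 10.4 FPKM in MUI. In 3 members it was more than 2-fold below in mature SA and within 2-fold in immature SA. In 2 members it was more than 2-fold below in mature SA and more than 2-fold above in immature SA, and 1 member, comp62425_c0_seq4_2, was more than 2-fold above at both stages. MUS was the highest of the 4 groups for 12 of the 14. Over the 1920 unigenes that met the level filters and the intestine band of the rule, the stomach was within 2-fold of the intestine for 83.1% in mature SA and 75% in immature SA.

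**Figure D3:**
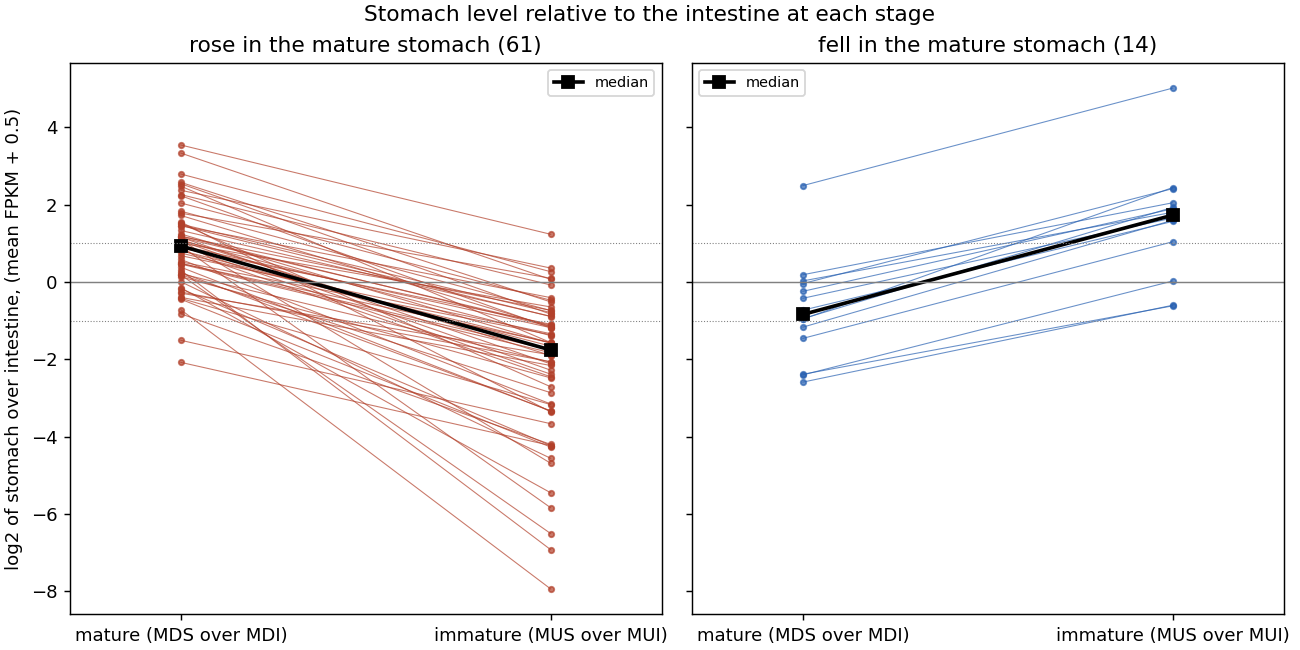
log2 ratio of the stomach to the intestine mean (each with 0.5 FPKM added) in mature SA (MDS over MDI) and immature SA (MUS over MUI), for the 61 unigenes that rose (left) and the 14 that fell (right). Thin lines are unigenes, squares are medians and dotted lines mark 2-fold. The medians are 0.93 in mature SA and -1.76 in immature SA for those that rose, and -0.84 and 1.72 for those that fell, and the direction of the lines is set by the rule.

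Within the band that the rule allowed, the intestine was not wholly flat. Among the members that rose, MDI was above MUI for 45 of 61, with a median log2 ratio of 0.27 and a range of -0.45 to 0.58. The 3 libraries of MDI were all above those of MUI for 28 members and all below for 4, and they overlapped for 29. Over all 50834 unigenes tested in the intestine, the libraries of MDI were all above in 33.1% and all below in 34.5%, and so did not overlap in 67.6%. For the 1920 unigenes inside the band these shares were 32.7%, 39.5% and 72.1%. Of the members that rose, 52.5% did not overlap, a lower share than in either. By direction, 45.9% of them were all above, a higher share than in either, and 6.56% all below, a lower one. Among the members that fell, MDI was below MUI for 8 of 14, with a median log2 ratio of -0.03, and the libraries overlapped for 12. None of the 75 members was called in the intestine by limma, where 44.6% of all unigenes tested were called (21.9% higher and 22.7% lower in MDI), since the band of the rule lies inside the 2-fold threshold of the call.

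Spread between libraries was also compared with that of other unigenes, without a test. The median coefficient of variation of those that rose was 7.12% in MDS at a median of 43.7 FPKM, against 4.76% for all MF unigenes of 20 to 200 FPKM in MDS, whose median was 36.2 FPKM. In MUS it was 22.9% at a median of 5.52 FPKM, against 11.5% for all unigenes of 5 to 20 FPKM there. The intestine values were 6.30% in MDI and 9.13% in MUI, against 4.52% and 4.74% for all unigenes of 20 to 200 FPKM in these groups. The members that rose had the higher median in each group, but many were scarcer than the unigenes compared. In MUS, 7 of them were below 1 FPKM and 19 were between 1 and 5 FPKM. In MDI and MUI their median levels were 26.1 and 21.6 FPKM, against 35.6 FPKM in each for the unigenes compared. For those that fell it was 28.0% in MDS, against 11.4% for all unigenes of 5 to 20 FPKM, and 6.17% in MUS, against 4.86% for those of 20 to 200 FPKM. Their intestine values were 15.5% in MDI and 14.8% in MUI, against 10.5% and 10.8% for all unigenes of 5 to 20 FPKM. Members were neither matched in level nor held to these ranges. In MDS, for example, the members that fell had a median of 5.41 FPKM, against 8.64 FPKM for all unigenes of 5 to 20 FPKM.

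The place of the members among all changes of the MF stomach follows from the steps of the rule. Of 4718 unigenes with at least 20 FPKM in MDS or MUS, 597 (12.7%) were at least 4-fold higher in MDS and 385 (8.16%) at least 4-fold lower. With at least 5 FPKM in both intestine groups, 358 higher and 147 lower remained of 3970. The intestine ratio separated these further. Among them, 955 unigenes had an intestine ratio above 1.5, and 281 of them were at least 4-fold higher in MDS and 2 lower. Another 1095 had an intestine ratio below 0.67, of which 16 were higher and 131 lower. The 1920 unigenes inside the band gave the 61 members that rose (3.18%) and the 14 that fell (0.73%). Most large changes in the stomach of unigenes that the intestine also expressed thus went with a change of more than 1.5-fold in the intestine, mostly in the same direction.

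**Figure D4:**
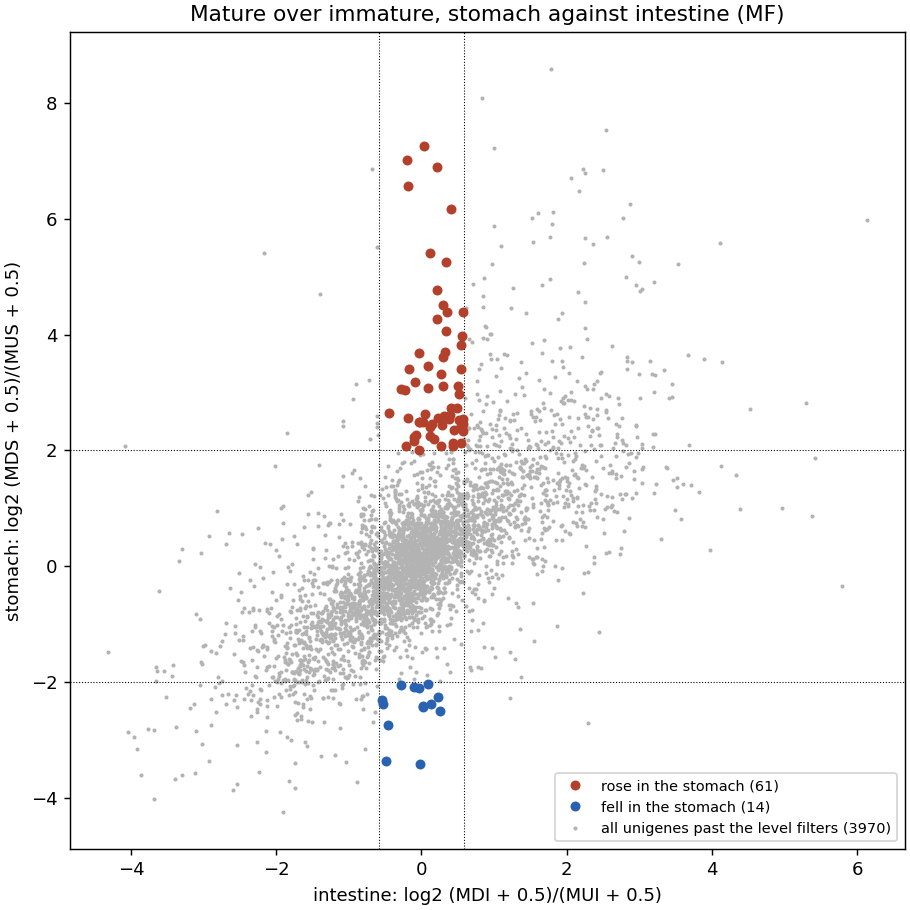
log2 ratio of mature to immature SA in the stomach (vertical) against that in the intestine (horizontal), each with 0.5 FPKM added, for the 3970 unigenes past the level filters (grey). The 61 members that rose and the 14 that fell are coloured, and dotted lines mark the limits of the rule. The members lie above and below a cloud in which both ratios tend to go together.

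The same rule with the tissues swapped gave 108 unigenes that changed in the intestine and stayed near their level in the stomach, of which 53 rose and 55 fell. These were 2.35% and 2.44% of the 2253 unigenes inside that band. The median log2 ratio of those that rose was 2.73 in the stomach set and 2.74 in the intestine set, and that of those that fell was -2.39 in the stomach set and -2.36 in the intestine set. The medians were alike, but the rule cut each set at 4-fold. The largest absolute log2 ratio of a fall was 3.43 in the stomach set and 6.58 in the intestine set. For rises it was 7.26 and 7.90. Falls had a median of 35.0 FPKM in their higher group in the stomach set and 67.8 FPKM in the intestine set, and rises 43.7 and 41.2 FPKM. The split by direction was 61 to 14 in the stomach set and 53 to 55 in the intestine set. No test of this difference was made, because both sets were chosen by the same group means.

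The form of the unigene ID, which the rule did not use, differed between the members that rose and those that fell. MF IDs are either contigs of a cluster (CL) or components (comp) with a last number of 1 or 2, and no source used here says what that number means. Of the 61 members that rose, 54 were comp IDs ending in 1, 5 were comp IDs ending in 2 and 2 were CL contigs. Of the 14 that fell, 12 were comp IDs ending in 2, 1 ended in 1 and 1 was a CL contig. Of the 1845 unigenes inside the band that did not change 4-fold, 64.5% were CL contigs, 17.1% comp IDs ending in 1 and 18.4% comp IDs ending in 2.

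Read the other way, members made up 54 rises and 1 fall among the 371 comp IDs ending in 1 inside the band, 5 rises and 12 falls among the 356 ending in 2, and 2 rises and 1 fall among the 1193 CL contigs. The pattern was not particular to the members. Of the 597 unigenes of at least 20 FPKM that were at least 4-fold higher in MDS, 90.8% were comp IDs ending in 1, and of the 385 that were at least 4-fold lower, 93.5% were comp IDs ending in 2. In the intestine set, 52 of the 53 that rose ended in 1 and 44 of the 55 that fell ended in 2. Inside the band of the stomach rule, MDI was above MUI for 60.6% of comp IDs ending in 1, 38.8% of those ending in 2 and 45.2% of CL contigs. No unigene sequences were used here, so whether IDs ending in 1 and in 2 include near-identical unigenes, between which the reads of 1 transcript would be divided, was not tested. The levels and ratios of the 61 and the 14 are therefore those of single unigenes and may not be those of whole genes.

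**Figure D5:**
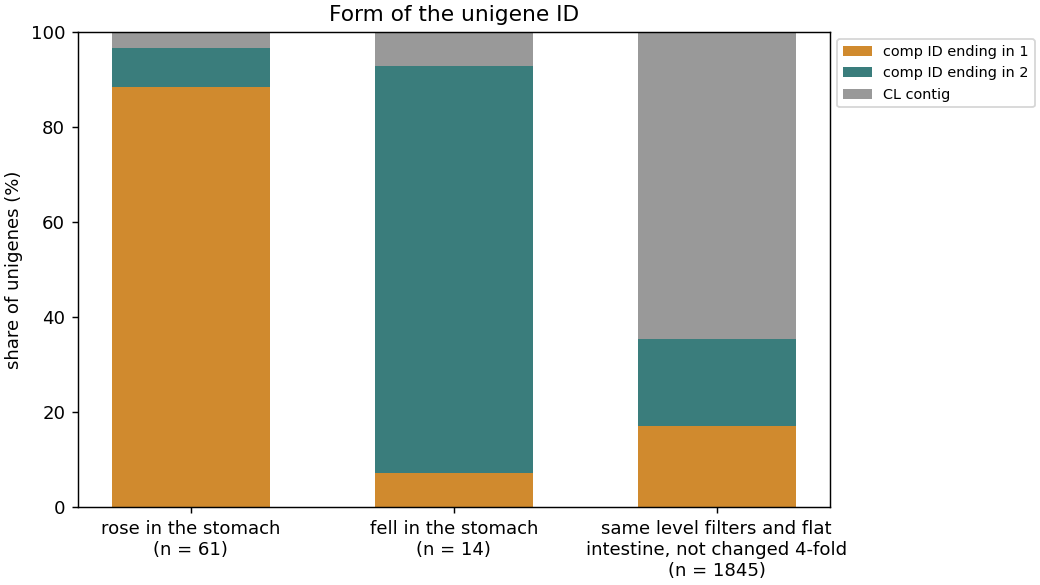
Share (%) of unigenes by form of the ID among the 61 that rose, the 14 that fell and the 1845 unigenes with the same level filters and intestine band that did not change 4-fold in the stomach. Comp IDs ending in 1 are 88.5% of those that rose, comp IDs ending in 2 are 85.7% of those that fell, and CL contigs are 64.5% of the unchanged unigenes.

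The 5 members that rose and had an ID ending in 2 had a median log2 ratio of stomach to intestine of -0.43 in mature SA and -3.33 in immature SA, against 0.97 and -1.58 for the 54 ending in 1. In mature SA the 5 ranged from -2.08 to 1.06 and the 54 from -0.83 to 3.54, so the ranges overlapped, and the difference was not tested. By ID, members seldom came from the same component or cluster. The 75 members came from 74 components or clusters, and 72 were alone in theirs, against 89.1% of all MF unigenes. The 3 with companions were all CL contigs, and the share over all MF unigenes was not split by form of the ID. Comp IDs with different last numbers were counted as different components, so relatives across these numbers would not be seen. The 2 CL contigs that rose belonged to 1 cluster of many contigs. The other 6786 contigs of that cluster, counted from either of them, had a median log2 ratio of 0.09 in the stomach over the 5666 with a mean of at least 0.5 FPKM there, and 67 were at least 4-fold higher in MDS.

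Some members lay close to the limits of the rule. The lowest stomach ratios among those that rose were 4.001 and 4.21, and the nearest outside were 3.95 and 3.91. Among those that fell, the nearest inside were 0.244 and 0.241 and the nearest outside 0.252 and 0.259. Both stomach limits thus had unigenes close by on either side. In the intestine, the highest ratios of members that rose were 1.490 and 1.487, with 1.506 and 1.513 just outside. The lowest MDS levels were 20.2 and 20.5 FPKM inside and 19.9 and 19.7 FPKM outside.

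Fitted over all unigenes with limma, at a Benjamini-Hochberg adjusted p of 0.05 and a log2 fold change of at least 1, all 61 members that rose were among the 9512 calls higher in MDS (21.3% of 44581 tested). All 14 that fell were among the 8733 calls lower in MDS (19.6%), and 40.9% of unigenes were called in either direction. For the interaction, the stomach ratio minus the intestine ratio over the 12 MF libraries, 60 of 61 and 14 of 14 were called, against 13.1% of 50372 unigenes higher, 12.2% lower and 25.3% in all. The rule used these contrasts, so the counts describe the members and support nothing further.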

How the data were processed

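RNA was taken from stomach and intestine of mature and immature SA. The authors trimmed the reads, assembled the unigenes of each form separately with Trinity, and deposited the FPKM of every unigene in each library. Of the sources used here, none names the aligner or the FPKM program. Some deposited FPKM values are far below that of 1 read, so fragments were shared out between unigenes by an estimate, and values of near-identical unigenes may depend on it. The 12 files of the DF, whose unigene IDs belong to another assembly, were only counted and classed by ID. Groups came from the sample titles. Members were found by the rule on group means, in Python 3.11.15. The members and lists were chosen with earlier results of these data known. In each direction, the unigenes named are the member with the highest mean in its higher stomach group and that with the largest absolute stomach log2 ratio.

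As the deposited values are FPKM, log2(FPKM + 0.5) values were fitted in R 4.3.3 by limma 3.58.1, two-sided and with the variance trended on intensity. Unigenes whose mean over the fitted libraries was below 0.5 FPKM were dropped. A fold change on this scale understates the change of scarce unigenes. The methods of the study name a count method, which FPKM values do not allow. The fits and the depth estimate were tested on simulated data. Relative depth and the value of 1 read were estimated from low values, taking 3 libraries of a group as whole multiples within 2.5%. Alternatives were other pseudocounts, scalings and filters, a replicate block and leaving out each library.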

Additional observations from a re-analysis of the deposited data

Results flagged for a closer look

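The change with maturity differed between stomach and intestine for 12750 of the 50372 MF unigenes tested, by the interaction term of limma, at an adjusted p of 0.05 and log2 ratios differing by 1 or more. A total of 6584 had a larger ratio of mature to immature SA in the stomach and 6166 a smaller one. Among them were 74 of the 75 members, which were chosen by this very difference. The calls rest on the spread between these libraries, which may be technical. Whether reads were divided between near-identical unigenes was not tested.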

How the results depend on the processing

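The FPKM files give no counts, which limits the precision of the scarce groups, above all MUS for members that rose. Pseudocounts of 0.1 and 1 FPKM, median of ratios and quantile normalization gave 56 to 62 rises (51 to 59 of them shared with the 61) and 12 to 15 falls (11 to 14 shared). Rises more than 2-fold above the mature intestine in MDS were 35 of 56 with median of ratios and 33 of 58 with quantile normalization, against 28 of 61. Falls more than 2-fold above the immature intestine in MUS were 9 of 12 and 11 of 14, against 11 of 14. The excess of rises depended on the level filters. With them doubled, 29 rose (median log2 ratio 2.98, 15 of them more than 2-fold above the mature intestine in MDS) and 3 fell (median -2.11, all 3 more than 2-fold above the immature intestine in MUS). Without them, but with nonzero means in both intestine groups, 585 rose (median 2.43, 310 above the intestine) and 646 fell (median -2.44, 513 above). Falls were then more frequent, and the medians were alike in size. In that setting, the added 0.5 FPKM evens out the intestine ratio of unigenes scarce in the intestine. The intestine band therefore says little about those. The counts follow from the number of unigenes that the filters admit, while the cause of the changed balance was not tested. Limits chosen after seeing the data gave 37 rises and 10 falls for an intestine ratio from 0.8 to its inverse, and 96 rises and 25 falls for a stomach ratio of at least 3 or at most 0.33.

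Leaving out 1 library at a time gave 58 to 66 rises (54 to 60 shared), with medians of 2.63 to 3.01 and 27 to 30 above the intestine, and 12 to 16 falls (11 to 14 shared), with medians of -2.43 to -2.29 and 8 to 12 above. The stomach ratios of the 4 named unigenes kept their sign in the 11 settings run. Same-numbered libraries of different groups had correlations of deviations of -0.003 to 0.068, against -0.046 to 0.030 for libraries of different numbers. All were small. With a spread between libraries close to that of counting reads, they cannot show whether the numbers pair the libraries. With the replicate number as a block, limma called 17927 unigenes in the stomach, 22398 in the intestine and 12467 in the interaction, and 75 and 74 members in the stomach and interaction, and changed no call of a member count.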

Other observations

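In the whole MF assembly, the last number of the comp IDs went with the stage of the group in which a unigene was highest. Of 2431 comp IDs ending in 1 with a mean of at least 20 FPKM in any MF group, 2150 (88.4%) were highest in a mature group. Of 2607 ending in 2, 2181 (83.7%) were highest in an immature group. The 2247 CL contigs of that level were divided between 1135 highest in a mature group and 1112 in an immature one. All 68627 unigenes of the DF carried CL IDs, so the same could not be looked at there.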
